A study of Mus musculus with 6 samples.

Results

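The transcription factors that set and hold the identity of Sertoli cells, and a pair that marks the neighbouring interstitial cells, were followed here in TM4 cells with and without 4-nitrophenol. The 10 genes were Sox9, Sox8, Wt1, Gata4, Gata6, Nr5a1, Nr0b1, Dmrt1, Nr2f2 and Tcf21. They were named from gonad biology, with earlier results of these data known. Every probe whose transcript accession belongs to 1 of them was taken, which gave 14 of the 56605 non-control probes on the array and 10 of its 23462 named genes. Sox9, Sox8, Gata4 and Dmrt1 had 2 probes each and the other genes 1, called here the brighter and the dimmer probe by their mean over all arrays.

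TM4 is an established line from immature mouse testis that is widely used in place of Sertoli cells; the labels call it a male testicular somatic line. Of 6 samples, 3 received no treatment (0 µM) and 3 received 10 µM 4-nitrophenol (PNP), a phenol of diesel exhaust and a product of some organophosphate insecticides, and all were taken for 24 h. The labels name no solvent for the untreated cells and do not say whether replicates were separate cultures, so the p-values below speak only of how far these arrays scatter, and that scatter may be technical. Each sample was read on 1 single-colour array, and the 6 arrays lay on 3 slides in 2 positions per slide; their number limits the precision.

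In the fetal testis, SRY and the nuclear receptor SF-1 (encoded by Nr5a1) switch on Sox9, which then maintains its own expression and directs the precursor into the Sertoli fate, with Sox8 as a partly redundant relative. WT1, GATA4 and GATA6 act in the gonadal ridge and afterwards in the supporting cells. DAX-1, the product of Nr0b1, restrains SF-1, and DMRT1 keeps postnatal Sertoli cells from taking on granulosa features. Nr2f2 and Tcf21 belong to interstitial and progenitor cells, and FOXL2 is the corresponding factor of the ovarian granulosa cell.

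Detection, the scanner software's call that a spot is well above its background, was met by 47.8% to 57.9% of probes per array, without any saturated spot. Of 18 Sertoli cell markers, 10 had a probe well above background on all 6 arrays, among them Sox9 itself, Dhh, a Sertoli signal to interstitial cells, and the homeobox gene Rhox5. Amh, Fshr and Cldn11, which define Sertoli cells by their hormone, their gonadotropin receptor and their tight junctions, were well above background on no array. Foxl2, by contrast, was well above background on all 6, with processed signals from 30710 to 43900. The same was seen for Sry (39.7 to 106) and for 5 of 6 myoid markers including Acta2. Of 12 interstitial stromal markers 7 were so detected, among them Pdgfra. Col1a2 is not among the 7 because it had no value on untreated replicate 3. It was well above background on the other 5 arrays. Leydig cell markers (Star and Cyp17a1 among the 7 measured) were on no array. Ddx4 of germ cells and Ptprc of leukocytes were detected nowhere, though 2 of 9 germ cell and 2 of 6 macrophage markers were detected on all 6. None of 5 endothelial markers and 3 of 6 granulosa markers were detected on all 6. The labels give no cell type beyond testicular somatic, and the cells are called TM4 throughout.

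Of the 10 factors, 7 were detected throughout: Sox9, Wt1, Gata4, Gata6, Nr5a1, Dmrt1 and Nr2f2 each had a probe well above background on all 6 arrays. At probe level this was 9 of 14, where 45.3% of all non-control probes met the same condition. Of all non-control probes, 22838 carried no gene symbol, and the share among those with a symbol was not counted. Sox8, Nr0b1 and Tcf21 had no probe well above background on all 6 arrays. With the weaker call that a signal only be positive and significant against the background, 10 of the 14 probes were present on all 6 arrays. The probe added was that of Nr0b1. The share of all probes that met the weaker call was not counted, so this count has no background beside it.

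**Figure D1:**
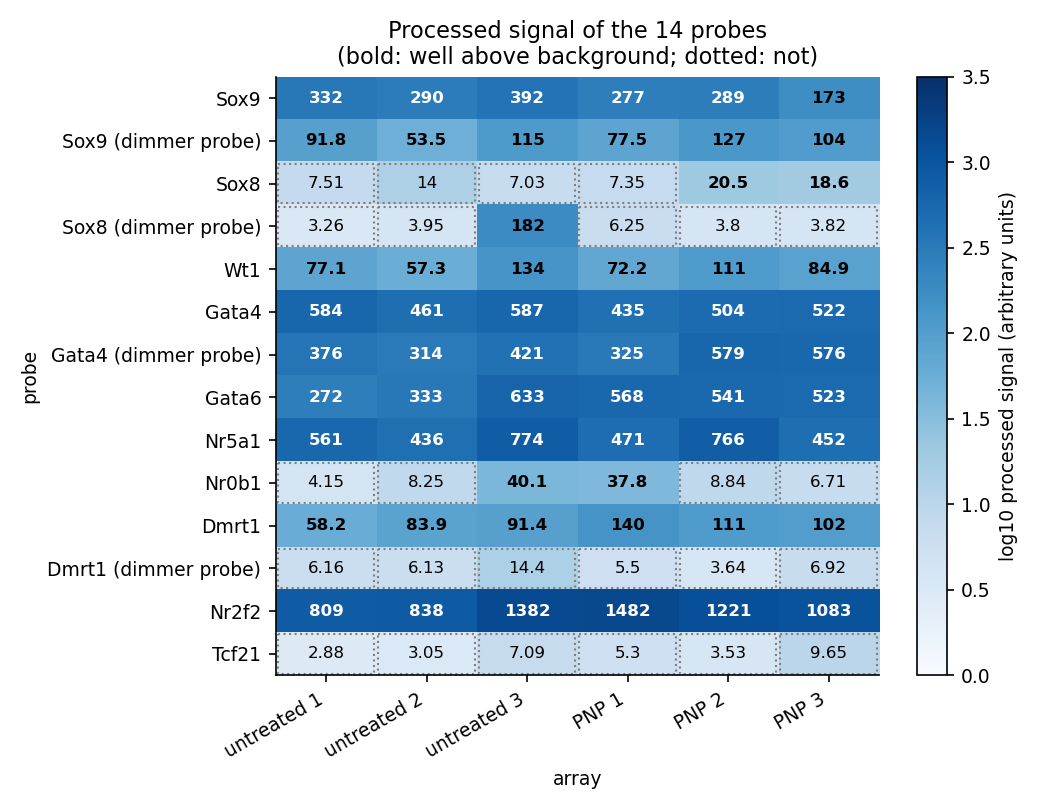
Processed signal in arbitrary units (numbers in the cells, colour on a log10 scale) of the 14 probes in rows on the 6 arrays in columns. Bold numbers are well above background and dotted cells are not; the 9 fully bold rows are the probes that could be compared between groups.

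Tcf21, a basic helix-loop-helix factor of interstitial progenitors, gave processed signals between 2.88 and 9.65, none of them well above background. Nr2f2, the orphan receptor COUP-TFII of the same compartment, was well above background throughout. Its signals were 809, 838 and 1382 in untreated and 1482, 1221 and 1083 in treated cells. The interstitial pair was thus split in both groups, with 1 factor on every array and 1 on none. The pair is compared by detection only, since probes differ in their response.

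Sox8, the close relative of Sox9, was at the edge of detection. Its brighter probe had signals of 7.51, 13.99 and 7.03 in untreated cells, all below the detection call, and of 7.35, 20.5 and 18.6 in treated cells, the last 2 above it. The dimmer probe read 3.26, 3.95 and 182 in untreated and 6.25, 3.80 and 3.82 in treated cells, so 1 array, untreated replicate 3, stood alone and the brighter probe of that array did not follow. Neither probe entered the test. No fold is given for either, because the group with some detection did not exceed the detection floor of the other group on average.

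Nr0b1 was detected on 2 arrays, 1 in each group. Its signals were 4.15, 8.25 and 40.1 in untreated and 37.8, 8.84 and 6.71 in treated cells. The high values are untreated replicate 3 and PNP replicate 1, which are the 2 arrays of slide 2. The groups overlapped, and what slide or treatment contributed to these values was not tested. The dimmer Dmrt1 probe was on no array, with signals from 3.64 to 14.4, while the brighter one was on all 6.

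The comparison of treated with untreated cells asks whether PNP at this dose changes the expression of these factors. No member passed the test: 0 of the 9 probes tested had an adjusted p under 0.05 (limma, Benjamini-Hochberg over 28208 probes), and 0% of all probes tested did so. At an unadjusted p under 0.05 there was 1 member probe, the brighter Sox9 probe, against 9.38% of all tested probes. That probe was also the 1 of 9 whose groups did not overlap, against 15.3% of all tested probes. Both shares of members are near the background. Log2 fold changes of the 9 probes ran from -0.81 to 0.28, 5 lower and 4 higher with PNP, with a median of -0.04, and the median over all tested probes was -0.06. Sox9 and Gata4 each count by 2 probes in the members' median. With only the brightest probe of each gene it was -0.27 over 7 probes, against -0.04 over all probes kept that way.

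**Figure D2:**
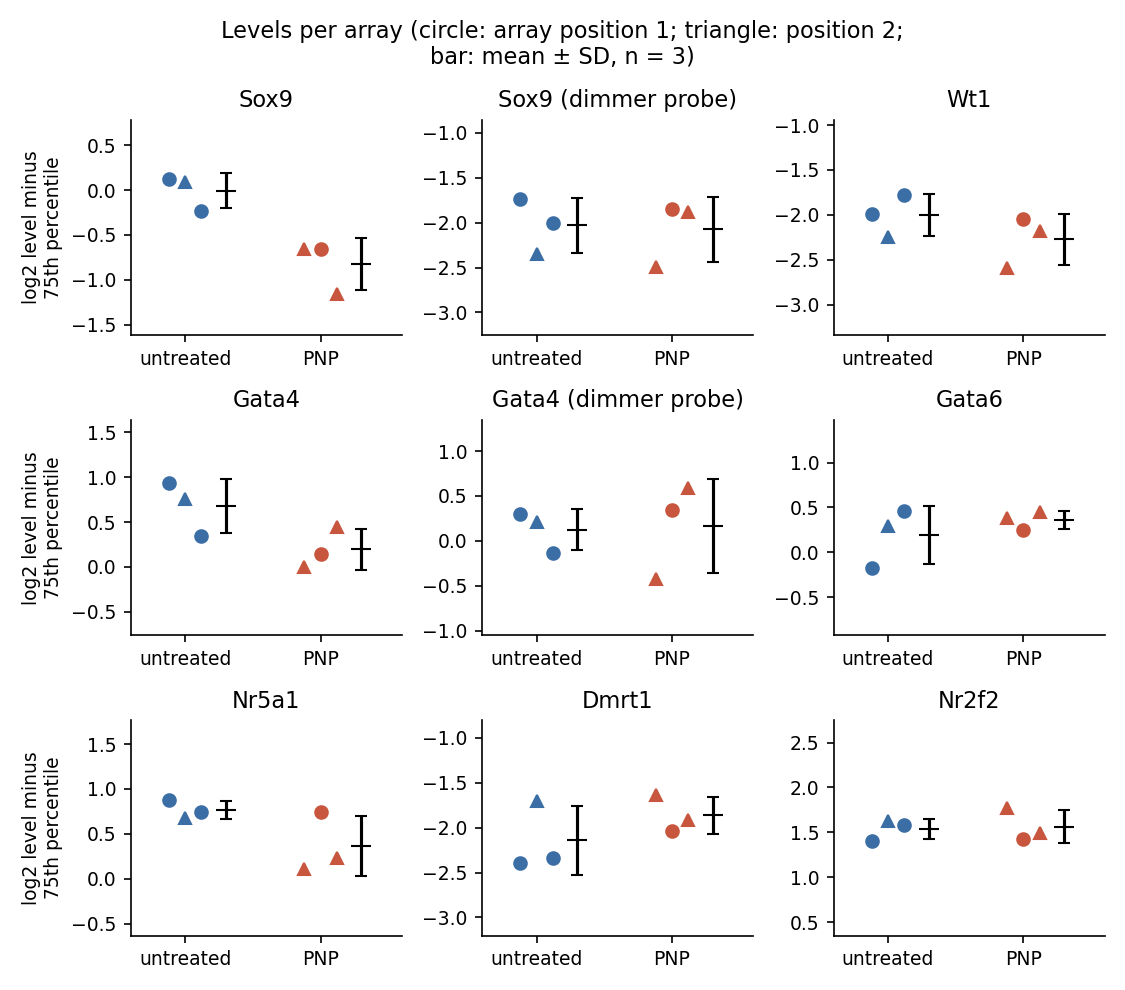
Level of each of the 9 tested probes on each array (log2 processed signal minus the array's 75th percentile), untreated in blue and PNP in red, with the mean ± SD of 3 arrays beside the points; circles are array position 1 and triangles position 2, and every panel spans the same range of log2 units. In the brighter Sox9 panel the groups are apart, and in the other 8 they overlap.

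Sox9 was the member with the largest difference, and it showed at 1 of its 2 probes. The levels below are log2 processed signals minus the 75th percentile of the array, so 0 is the level of the probe at that percentile, and only differences within a probe are compared. The brighter probe had levels of 0.12, 0.09 and -0.24 in untreated cells and -0.65, -0.66 and -1.15 in treated cells. All treated arrays lay below all untreated ones, and PNP replicate 3 was lowest. Means were -0.01 ± 0.20 and -0.82 ± 0.29 (SD, n = 3 each), a log2 fold change of -0.81 ± 0.23 (SE) with a 95% interval from -1.33 to -0.30, or a level 1.76-fold higher without PNP. It did not pass (limma, unadjusted p = 0.00647, adjusted p = 0.347), and 1.85% of tested probes had a p as small. The summed level of the Sertoli marker list without Sox9 took each gene relative to the 75th percentile on a linear scale. It ran from 15.44 to 16.43 in untreated and from 12.33 to 15.84 in treated cells, and the groups overlapped. Ctsl and Clu were its largest terms on every array, so the sum weighs these genes most and does not measure Sertoli cell content. Its part in the Sox9 result was not tested. In a culture, fewer cells expressing a gene and less RNA per cell cannot be told apart.

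The dimmer Sox9 probe had levels of -1.74, -2.35 and -2.01 in untreated and -2.49, -1.85 and -1.88 in treated cells. The groups overlapped, and 2 of the 3 treated arrays were above 2 of the untreated ones. Its log2 fold change was -0.04 ± 0.26 (SE), with an interval from -0.64 to 0.55 (limma, adjusted p = 0.969), and its sign turned with another scaling, the 75th percentile over detected probes (0.03), and with array position as a block (0.09). Both probes are annotated to the same RefSeq transcript.

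Array position was examined beside the Sox9 values. Array position 2 minus position 1 was -0.05 ± 0.23 for the brighter probe and -0.41 ± 0.23 (SE) for the dimmer one (limma, adjusted p = 0.928 and 0.345). With position as a block the brighter probe had -0.80 (limma, adjusted p = 0.241), and within positions 1 and 2 it had -0.60 and -0.99 (limma, adjusted p = 0.821 and 0.623). Within slide 2, the only slide with both groups, treated minus untreated was -0.42. Array weights, which gave untreated replicate 1 a weight of 9.38 and the others 0.48 to 0.844, were the only setting in which it passed (limma, -0.91, adjusted p = 0.0324), and 1503 of the 28208 probes passed in that setting.

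**Figure D3:**
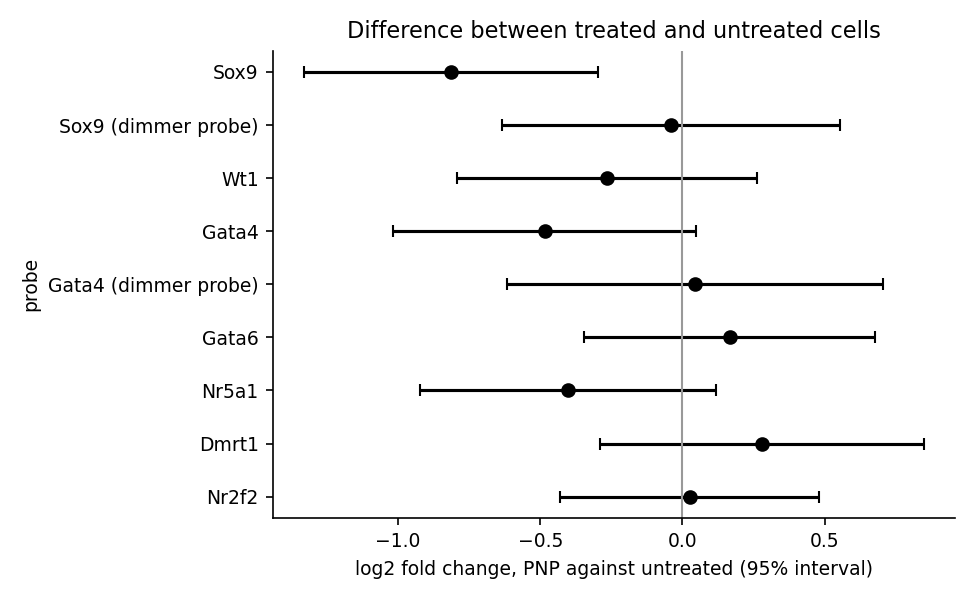
Log2 fold change of PNP against untreated cells with its 95% interval (limma) for the 9 tested probes. The interval of the brighter Sox9 probe ends at -0.30 and those of the other 8 probes hold 0; none of the 9 passed after adjustment over all probes.

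Since probes of a gene are read on the same array, their difference carries no scaling. For Sox9, brighter minus dimmer was 1.86, 2.44 and 1.77 in untreated and 1.84, 1.19 and 0.73 in treated cells. PNP replicate 1 lay among the untreated arrays, so the groups overlapped. The mean difference fell by 0.77 on the log2 scale with PNP (exact permutation test over arrays, two-sided, p = 0.2, adjusted over 2 pairs 0.2). For Gata4 the same difference was 0.63, 0.55 and 0.48 against 0.42, -0.20 and -0.14. Here the groups did not overlap, with PNP replicate 1 again nearest to the untreated arrays. The mean fell by 0.53, with the smallest p that 3 against 3 arrays can give (exact permutation test, p = 0.1, adjusted 0.2), so the design could not reach 0.05.

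**Figure D4:**
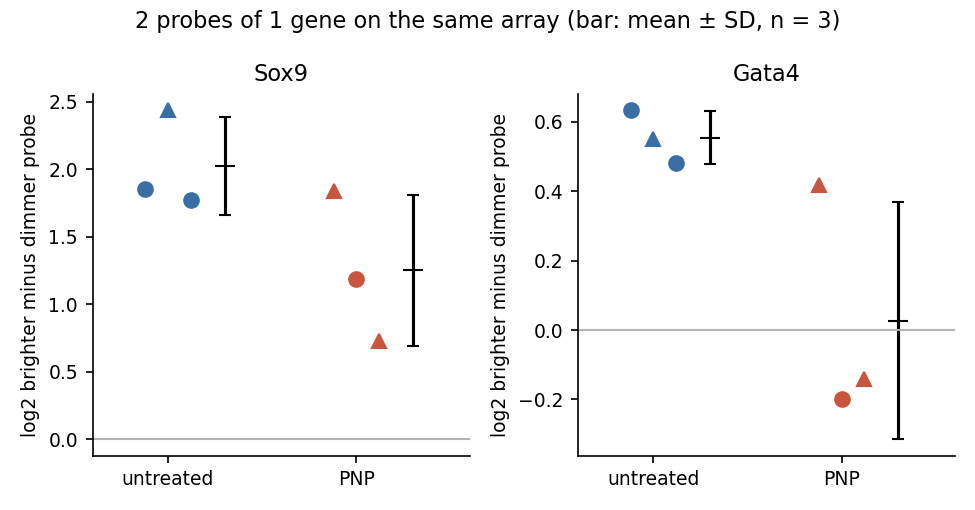
Difference between the brighter and the dimmer probe of Sox9 (left) and of Gata4 (right) on each array in log2 units, with the mean ± SD of 3 arrays; circles are array position 1 and triangles position 2. The Sox9 groups overlap through PNP replicate 1 at 1.84, and the Gata4 groups do not.

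Gata4, a zinc finger factor needed for the gonadal ridge and for Sertoli cell function, had levels of 0.93, 0.76 and 0.35 at the brighter probe in untreated cells and 0.00, 0.15 and 0.44 in treated cells. PNP replicate 3 lay above untreated replicate 3, and the other treated arrays lay below every untreated one. The log2 fold change was -0.48 ± 0.23 (SE), with an interval from -1.02 to 0.05 (limma, adjusted p = 0.555). Its dimmer probe had 0.30, 0.21 and -0.13 against -0.42, 0.34 and 0.58, and the treated arrays surrounded the untreated ones. That gave 0.04 ± 0.29, from -0.62 to 0.70 (limma, adjusted p = 0.970), and -0.06 after median centring. The array annotates these probes to different RefSeq transcripts of Gata4. The brighter probe was lower with PNP within both array positions, at -0.50 and -0.54.

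Gata6, the relative of Gata4 in the same cells, had levels of -0.17, 0.29 and 0.46 in untreated and 0.38, 0.25 and 0.45 in treated cells. The treated arrays fell inside the upper part of the untreated range, in which untreated replicate 1 was low. The log2 fold change was 0.17 ± 0.22 (SE), with an interval from -0.35 to 0.68 (limma, adjusted p = 0.825), and -0.02 without untreated replicate 1. Wt1, the zinc finger factor of the gonadal ridge and of Sertoli cells, had -1.99, -2.25 and -1.78 against -2.59, -2.04 and -2.18. PNP replicate 1 was lowest and the others lay within the untreated range. Its difference was -0.27 ± 0.23, from -0.79 to 0.26 (limma, adjusted p = 0.721). Without PNP replicate 1 it was -0.10, and with slide as a fixed block -0.81.

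Nr5a1, which encodes SF-1, had the tightest untreated group, with levels of 0.87, 0.68 and 0.75 (mean 0.77 ± 0.10, SD, n = 3). Treated arrays were at 0.11, 0.75 and 0.23, and PNP replicate 2 sat close to the untreated mean while the other 2 lay below the group. The log2 fold change was -0.40 ± 0.23 (SE), with an interval from -0.92 to 0.12 (limma, adjusted p = 0.604). It was -0.06 within array position 1, which holds PNP replicate 2, and -0.51 within position 2 (limma, adjusted p = 0.989 and 0.969). The position coefficient itself was -0.35 ± 0.19 (limma, adjusted p = 0.330).

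Dmrt1, the guardian of male fate after birth, had levels of -2.39, -1.70 and -2.33 in untreated and -1.64, -2.03 and -1.92 in treated cells. Untreated replicate 2, on array position 2, lay with the treated arrays. The log2 fold change was 0.28 ± 0.25 (SE), from -0.29 to 0.85 (limma, adjusted p = 0.726), while within array positions 1 and 2 it was 0.33 and -0.08. The position coefficient was 0.46 ± 0.19 (limma, adjusted p = 0.222), the farthest from 0, in standard errors, of the 9 probes.

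Nr2f2 had the smallest difference of the 9 probes. Its levels were 1.40, 1.62 and 1.58 in untreated and 1.77, 1.42 and 1.496 in treated cells, with means of 1.54 ± 0.12 and 1.56 ± 0.18 (SD, n = 3). The difference was 0.03 ± 0.20 (SE), with an interval from -0.43 to 0.48 (limma, adjusted p = 0.976), and -0.08 after median centring. Over the 9 probes, 95% intervals reached between 0.454 and 0.661 to either side of the estimate, without adjustment for the number of probes.

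**Figure D5:**
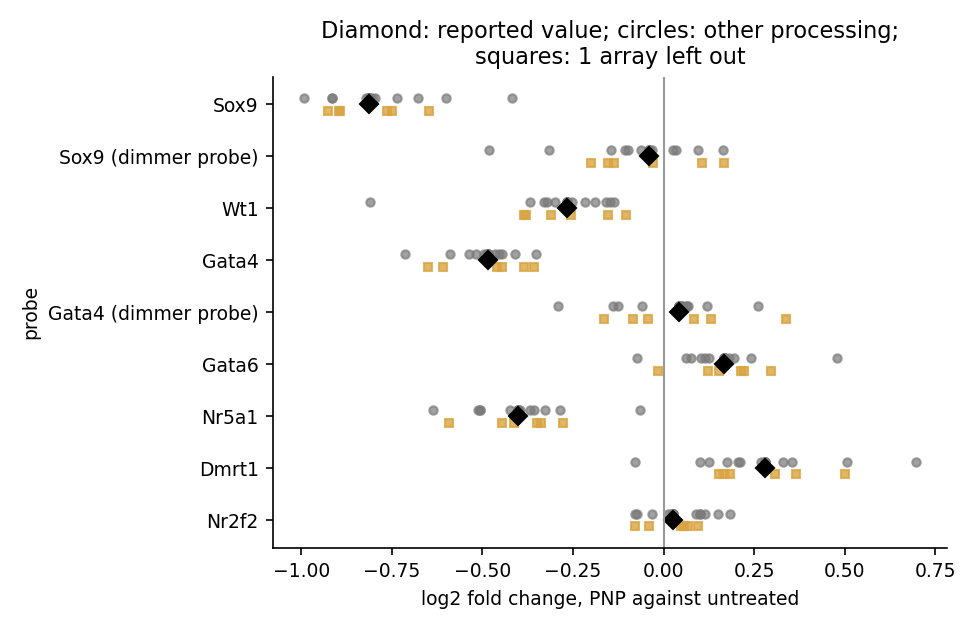
Log2 fold change of PNP against untreated cells for the 9 tested probes: the reported value (diamond), the value under each other processing or block (circles) and with 1 array left out (squares). Brighter Sox9 stayed between -0.99 and -0.42, brighter Gata4 between -0.71 and -0.35, and the points of Nr2f2 lie on both sides of 0.

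The other genes of the pathway were taken as 4 lists with 83 genes, of which 53 had a probe well above background on all 6 arrays and 55 entered the test by their brightest probe. None passed after adjustment (limma, smallest adjusted p = 0.372), and 3 were past an unadjusted p under 0.05, all higher with PNP, against the 9.38% above. The median log2 fold change was -0.08. Counts by list were 0 of 15 for gonadal ridge genes and activators of Sry, with a median of -0.11, and 0 of 14 for the Sertoli programme downstream of the factors, with -0.0028. They were 0 of 10 for the granulosa side, with -0.12, and 0 of 16 for relatives of the factors, with -0.10.

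Upstream of Sox9, Kdm3a, the histone demethylase that opens the Sry locus, had levels of 0.23, -0.16 and 1.19 in untreated and 1.45, 2.09 and 1.37 in treated cells. The groups did not overlap, but untreated replicate 3 lay near the treated arrays. The log2 fold change was 1.22 ± 0.36 (SE; limma, adjusted p = 0.377), and 0.26 with slide as a fixed block. It passed within array position 1 (limma, 1.38, adjusted p = 0.0407), where PNP replicate 2 is the lone treated array and all probes share an SE of 0.412, and with array weights (limma, 1.37, adjusted p = 0.0306). Osr1, a transcription factor of the early gonad and mesoderm, had -0.31 ± 0.19, with groups that did not overlap (limma, adjusted p = 0.620).

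Among relatives, Twist1, a basic helix-loop-helix factor of mesenchyme like Tcf21, had levels of 0.91, 0.82 and 1.76 in untreated and 1.74, 2.53 and 3.10 in treated cells. Untreated replicate 3 and PNP replicate 1, the arrays of slide 2, were nearly equal. The log2 fold change was 1.29 ± 0.38 (SE; limma, adjusted p = 0.372), -0.01 with slide as a fixed block, and 1.47 with array weights, where it passed (limma, adjusted p = 0.0356). Nr2f6, a relative of Nr2f2, had -0.34 ± 0.19 with groups that did not overlap, and Dmrt2 had -0.53 ± 0.31 (limma, adjusted p = 0.601 and 0.611). Sox10, the third gene of the Sox8 and Sox9 subgroup, was on no array.

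Of genes downstream, Rhox5, an androgen-regulated homeobox gene of Sertoli cells, had levels of 0.96, 0.61 and 0.47 in untreated and 0.05, 0.45 and 0.22 in treated cells. All treated arrays were below all untreated ones, though untreated replicate 3 and PNP replicate 2 nearly met. The log2 fold change was -0.44 ± 0.22 (SE, limma, adjusted p = 0.562). Of the genes in this paragraph, Rhox5 has 2 probes, Kitl 3 and Esr1 6, and only the brightest of each is given. Groups were apart at 15.3% of all tested probes, a share that also stands beside Kdm3a, Osr1 and Nr2f6. Inhbb, a subunit of inhibin B, had -0.38 ± 0.26, and Kitl, the germ cell growth factor, 0.28 ± 0.20 (limma, adjusted p = 0.661 and 0.672). On the granulosa side Lef1, a partner of beta-catenin, had -1.74, -2.51 and -1.88 against -1.76, -1.04 and -0.97, which overlapped through PNP replicate 1. Its log2 fold change was 0.79 ± 0.30 (limma, adjusted p = 0.483), 0.47 with normexp background correction and 0.12 with slide as a fixed block. Esr1, an estrogen receptor, had 0.33 ± 0.19 and Irx5, a homeobox gene, -0.26 ± 0.21 (limma, adjusted p = 0.607 and 0.7002). Foxl2 itself had -0.21 ± 0.20 (SE), with an interval from -0.66 to 0.24 (limma, adjusted p = 0.738).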

How the data were processed

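Each array file holds deposited intensity values from Agilent Feature Extraction (its header names version 11.5.1.1, the submitters' processing notes 10.7): a background-subtracted processed signal, not normalized between arrays, median spot and background signals, and detection flags. The annotation build is mm9 per the file headers, and no coordinates are used. The authors' deposited log2 values, an alternative here, have a median of 4.75 on every array; their scale follows the scanner signal (r at least 0.998 across probes), and their normalization is not given in the sources used here.

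Log2 processed signals were averaged over a probe's spots without outliers, and the array's 75th percentile was subtracted. Accessions were matched to RefSeq symbols (names only, from the GRCm38.p6 assembly; 33767 of 56605 probes). The test took the 28208 probes that had a value on every array and were detected throughout 1 group or both. They were fitted with limma 3.58.1 in R 4.3.3 (statmod 1.5.0), two-sided, with Benjamini-Hochberg adjustment and a threshold of 0.05. No member value was missing. A run on simulated arrays, made without slide or position differences, checked the code only. It does not bear on the member differences.

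Slide and position come from the files. Both arrays of slide 1 were untreated (replicates 1 and 2) and both of slide 3 were treated (PNP replicates 2 and 3), so only slide 2 mixes the groups, with untreated replicate 3 beside PNP replicate 1. On position 1 lay untreated replicates 1 and 3 with PNP replicate 2. With slide as a fixed block, a fold change is therefore PNP replicate 1 minus untreated replicate 3, 1 array against 1. These arrays also differ in position, so treatment and position cannot be told apart in that setting. All scans shared 1 day. The alternatives covered background correction, scaling, filters, array weights, blocks and leaving out each array.

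Named genes were the 10 members, the 3 genes of smallest p in each list and a set of cell type markers; Sry and Sox10 are also given and were chosen after their values were seen. Some genes that this rule names are not reported here. Members and lists were chosen with earlier results of these data known.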

Additional observations from a re-analysis of the deposited data

How the results depend on the processing

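The count of member probes past the adjusted threshold was 0 here and in all alternatives but array weights, where it was 1 (brighter Sox9); the weights' estimation stopped before full convergence. List genes past it were 0 of 55, but 2 with array weights and 1 within array position 1. Of all 28208 probes, 1503 passed with array weights and 638 within array position 1, against 0 here. The count at an unadjusted p, 1 here, was 2 with normexp background correction (offset 50) and without a filter, 3 after median centring, 5 with array weights, 0 with slide as a fixed block and within array position 1, and 1 to 2 leaving out each array, 2 without untreated replicate 3, PNP replicate 2 or PNP replicate 3. Over all probes the share at that p was 9.38% here, 7.98% with normexp, 5.81% without a filter, 11.8% after median centring, 30.4% with array weights, 4.78% with the fixed slide block and 9.72% within array position 1. The members' median, -0.04, was -0.35 with slide as a fixed block and 0.03 with a percentile over detected probes. It was -0.30 with array weights and -0.27 with only the brightest probe of each gene. The median of all probes was -0.08 and -0.04 in those 2 settings. Median centring moved the median of all probes from -0.06 to -0.16.

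Signs turned for small differences. Dimmer Sox9 had 0.034 with the percentile over detected probes, 0.095 with array position as a block, 0.026 and 0.16 within positions 1 and 2, and -0.20 to 0.17 leaving out each array. Dimmer Gata4 had -0.060 after median centring, -0.14 with array weights, -0.29 with the fixed slide block, -0.13 within position 2 and -0.16 to 0.34 leaving out each array. Gata6 had -0.0745 with the fixed slide block and -0.015 to 0.30 leaving out each array. Nr2f2 had -0.079 after median centring, -0.031 with position as a block, -0.0735 within position 1 and -0.078 to 0.096 leaving out each array. Dmrt1 had -0.078 within position 2. Dmrt2 (0.17) and Twist1 (-0.014) turned with the fixed slide block, and Irx5 (0.042) and Kitl (-0.015) within position 2. The cause was not tested. Brighter Sox9, brighter Gata4, Wt1 and Nr5a1 were lower with PNP in all 22 alternatives fitted to them. Changed filters, 1 probe per gene, a robust fit and a replicate block leave these fold changes as reported. The sign was therefore fixed in advance in those settings.

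A replicate block cannot move a fold change in this balanced design, so the -0.81 of brighter Sox9 is fixed there and only its error can differ (limma, adjusted p = 0.716); 0 member probes passed. Deviations of same-numbered arrays correlated at -0.464, -0.599 and -0.495. The arrays of each such pair lay in opposite positions, so these values cannot show whether the numbers pair the samples. The reported fit did not use the numbers as pairs.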
